A study of Mus musculus with 16 samples.

Results

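Repeated ultraviolet B (UVB) exposure was compared with no exposure in the epidermis of female SKH-1 mice, a hairless strain, over weeks 2, 15 and 25. The comparison takes all 6 UVB and all 6 control epidermis libraries, which are 12 of the 16 RNA-seq libraries of the series, with 2 libraries in each arm at each week. The exposed arm was irradiated with 60 mJ/cm2 in each of 2 weekly sessions, and the control arm was given no agent. The question is which transcripts differed in the same direction at 2, 15 and 25 weeks of treatment, so week was carried as an additive term and each week's own difference was read beside the mean over weeks. The other 4 libraries, from week 25, are 2 of control whole skin and 2 of UVB tumors, and were used once as a separate readout. Whether both libraries of a group stem from different animals is not stated in the labels, so a p-value here measures library-to-library spread alone, and that may be technical. The labels also do not give the mice's ages, any pooling or how epidermis was separated.

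The epidermis is a layered epithelium in which basal keratinocytes divide, leave the basement membrane and fill with keratins and cornified envelope proteins on their way to the surface. UVB is absorbed by DNA and forms pyrimidine dimers, and the known acute response includes p53 activation, a pause in division, loss of damaged cells and then a wave of proliferation that thickens the layer. Hair follicles, resident T cells, Langerhans cells and melanocytes lie within or reach into the epidermis, so a sheet of epidermal RNA holds transcripts of these cells as well.

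Deposited counts in the 12 epidermis libraries summed to between 2905165 (week 2 control 1) and 7175363. Keratinocyte marker transcripts, which check the labelled tissue, summed to 4995 to 5857 CPM (counts scaled to library size) in UVB and 5218 to 6807 CPM in control libraries, and 1 of the 10 markers, Dsg3, was called. The first principal component, holding 45.4% of the variance, placed UVB libraries at 15.6 to 52.6 and controls at -77.1 to -6.6. Week 15 control 1 was the control nearest the UVB arm, at -6.6, and the other controls lay at or below -27.9. The most covered gene of each library, leaving aside those whose exons total under 500 bases, reached 1.83 to 2.0 counts per base of exon whatever the depth, since duplicates had been removed, which can shrink the fold of a highly expressed gene.

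Over the 3 weeks, 1938 of 13478 genes tested were called up in UVB epidermis (14.4%) and 2035 were called down (15.1%), with edgeR (quasi-likelihood F test, Benjamini-Hochberg over all genes tested) at an adjusted p under 0.05. With upper-quartile scaling, which moved the median log2 difference of all genes to 0.075, the split was 2440 up and 1462 down (62.5% up, against 48.8%). At least 2-fold differences by the mean were reached by 924 of the genes up and 639 of those down. The median log2 difference (UVB over control) of all genes tested was -0.02. Of the called genes, 1878 of those up (96.9%) and 1987 of those down (97.6%) had 1 sign at all 3 weeks. Over all genes tested, whatever the direction of their mean, 25.4% were up and 26.2% were down at all 3 weeks. The call uses the mean of these same weeks, so the contrast is largely fixed by the choice of genes and is no separate support.

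A stricter reading asked that both UVB libraries lay on the same side of both controls at each of the 3 weeks. Without any call, 1424 genes (10.6%) lay above and 1389 (10.3%) below in this way. With the call for the mean over weeks, 1310 genes (9.72%) were up and 1305 (9.68%) were down, which is 67.6% and 64.1% of the called genes. These are the genes said below to be up or down at every week. They are fixed by the direction they were chosen for, so their week medians describe size only: 1.01, 0.88 and 1.02 on the log2 scale for the genes up at weeks 2, 15 and 25, and -0.83, -0.66 and -0.72 for those down. At least 2-fold at each week was reached by 432 genes up and 323 genes down. In 631 of the genes up and 635 of those down, the 6 UVB libraries did not overlap the 6 controls at all. A call in each of the 3 weeks' own tests was rarer, with 122 genes up (0.905%) and 117 down (0.868%). Those 2 counts hung on single libraries, with 322 and 311 without week 15 control 1, 18 and 6 without week 15 control 0 and 19 and 1 without week 15 UVB 1.

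Ranked by their smallest effect over the 3 weeks, the top rises among genes averaging 5 CPM or more were in Il19, Cdhr1, Svep1, Spink7, Akr1d1, Tmprss11b, Tcf23 and Cxcl9. Tcf23, a basic helix-loop-helix transcription factor gene (mm10 chr5:30968677-30977018, plus strand), held 3.02, 5.79 and 9.55 CPM in the lowest, median and highest control and 46.0, 72.8 and 103 CPM in the UVB libraries. Its difference was 3.65 ± 0.20 (log2 ± SE; adjusted p = 3.38e-06), with 3.57, 3.97 and 3.42 at weeks 2, 15 and 25. Cdhr1 (chr14:37077849-37098311, minus strand), a protocadherin-related gene known from photoreceptors, held 0.738 to 2.15 CPM in controls (median 1.40) and 27.8 to 57.6 CPM in UVB libraries (median 44.1), a difference of 4.88 ± 0.28 (adjusted p = 3.41e-06). Every UVB library stood far above every control in both genes. Akr1d1, which encodes a steroid 5-beta reductase of bile acid and steroid metabolism, rose by 4.05 ± 0.40 (adjusted p = 7.91e-05), from 0.814 to 3.4 CPM in controls to 16 to 61.4 CPM in UVB libraries. Svep1, an extracellular matrix protein gene, went from 0 to 1.97 CPM in controls (median 0.284) to 19.7 to 49.0 CPM with UVB (median 29.1). Tmprss11b, a membrane serine protease of squamous epithelia, went from 0.415 to 3.59 CPM to 13.1 to 44.1 CPM, and Spink7, a Kazal-type serine protease inhibitor, from 0.814 to 4.28 CPM to 36.9 to 66.2 CPM.

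Il19, a cytokine of the interleukin-10 family, had 5 counts in the 6 controls together and 680 in the 6 UVB libraries. Its UVB libraries ranged from 4.61 to 30.7 CPM with a median of 19.5, and no control exceeded 0.359 CPM. Because its controls held at most 2 counts in any week, its size in single weeks rests on the prior count of the fit and is not given.

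Other genes were up by nearly the same factor at every week. Stom, which encodes the membrane protein stomatin (chr2:35313990-35337009, minus strand), rose by 2.41 ± 0.16 (adjusted p = 9.47e-06) with a lowest week value of 2.35. Its controls held 40.2 and 27.0 CPM at week 2, 34.2 and 59.0 at week 15 and 43.3 and 51.7 at week 25, and its UVB libraries 172 and 215, then 187 and 290, then 262 and 236. Icosl, the ligand of the T-cell costimulator ICOS, rose by 1.96 ± 0.24 with week values of 1.93, 2.02 and 1.93, from 5.74 to 13.6 CPM in controls to 13.8 to 46.1 CPM. The endonuclease gene Ankle1 rose by 1.90 ± 0.26, Pgbd1 by 1.21 ± 0.18, Rnaseh2c, a subunit of the enzyme that removes ribonucleotides from DNA, by 1.16 ± 0.22, and Dcps, the scavenger decapping enzyme, by 1.07 ± 0.24. The 3 week values of each of these 6 genes lay within 0.147 of each other. They were picked for that small range, which is therefore no result.

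Of genes at least 2-fold up at each week, the most abundant per kilobase of exon were Stfa2, Krt6b, Ly6a and Spink7. Krt6b, a keratin of wounded and hyperproliferative epidermis, held 46.7, 143 and 279 CPM in the lowest, median and highest control and 342, 399 and 448 CPM with UVB, a rise of 1.45 ± 0.29 (adjusted p = 0.00307). Ly6a, which encodes the surface protein Sca-1, rose by 1.46 ± 0.18, from 29.9 to 94.4 CPM to 131 to 180 CPM. Stfa2, a stefin that inhibits cathepsins, rose by 1.91 ± 0.23, from 11.4 to 46.8 CPM to 74.9 to 95.8 CPM. Arms did not overlap in any of the 4. All 4 reached over 1 count per base of exon, near the ceiling, at most 1.19 for Krt6b, 1.21 for Ly6a, 1.42 for Stfa2 and 1.45 for Spink7, and Stfa2 has near-identical copies that can share its reads.

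**Figure D1:**
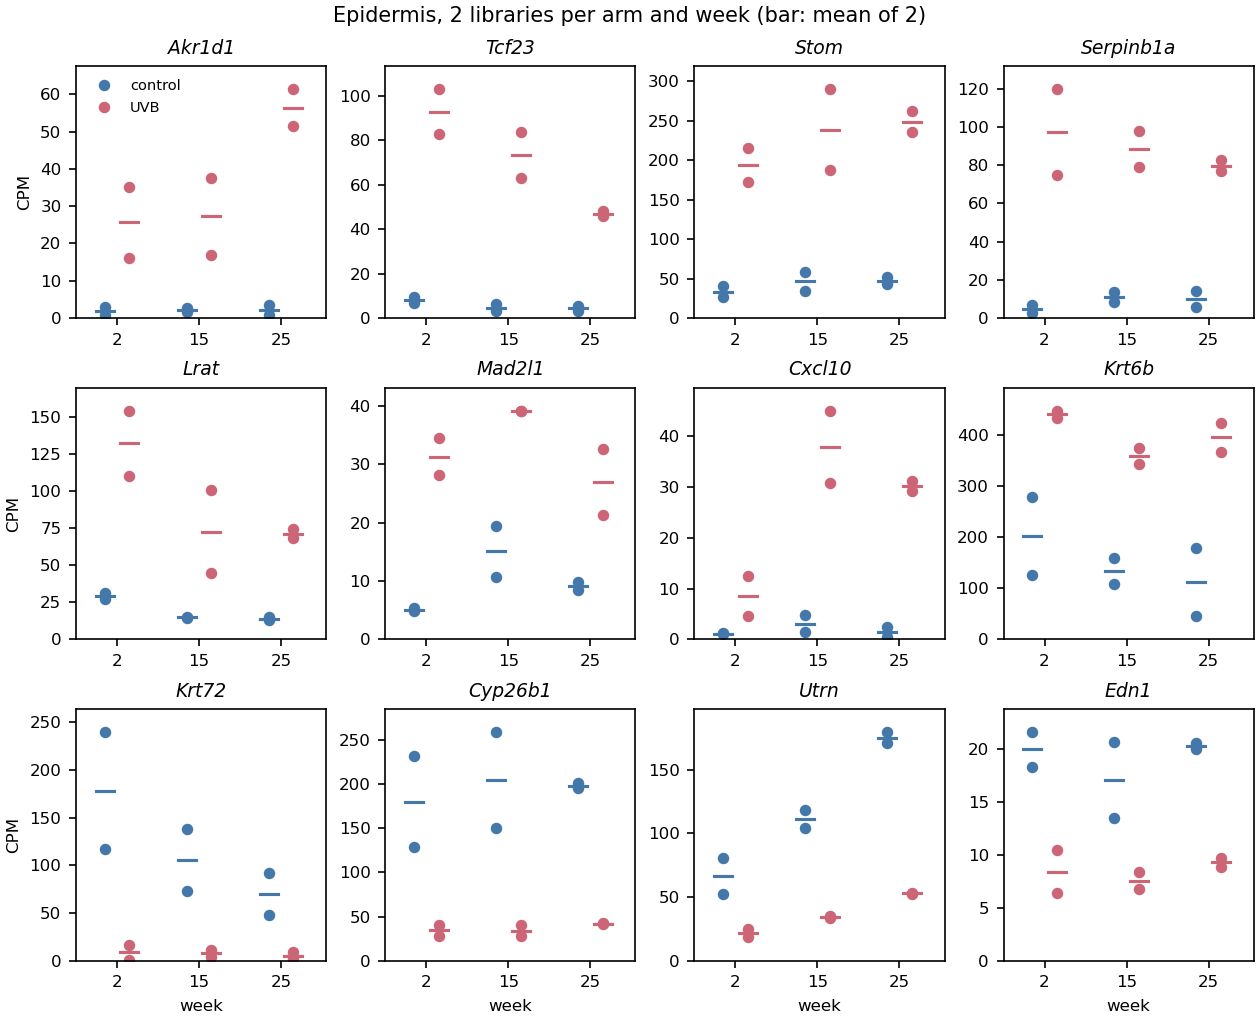
CPM (vertical axis, linear, from 0) by week for 12 genes up or down at every week. Each dot is 1 epidermis library, blue for control and red for UVB, and each bar is the mean of the 2 libraries of a group. In each panel both red dots of a week lie on the same side of both blue dots, from Akr1d1 (controls at most 3.4 CPM, UVB at least 16) to Edn1 (controls at least 13.4, UVB at most 10.4).

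The largest falls at their weakest week were in Dsg4, Mrgprb2, Krt39, Capn8, Krtap26-1, Krt72, Krt26 and Rab11fip4. Dsg4 (desmosomal cadherin of the hair cortex), Krt39 (hair shaft keratin), Krtap26-1 (keratin-associated protein) and Krt72 and Krt26 (inner root sheath keratins) are known as hair follicle genes. Krt39 (chr11:99514624-99521258, minus strand) held 55.8 and 19.9 CPM in the week 2 controls, 25.3 and 9.32 at week 15 and 10.7 and 4.43 at week 25, against 0.294 to 1.47 CPM in the 6 UVB libraries. It fell by 4.78 on the log2 scale (SE 0.52, adjusted p = 0.000148). Krt72 held 48.4 to 240 CPM in controls and 0.816 to 16.8 CPM with UVB. Krt26 held 42.4 to 324 CPM in controls and 0.816 to 19.8 CPM with UVB. No UVB library reached the lowest control in any of these genes. Mrgprb2, the receptor by which connective tissue mast cells sense peptides and drugs, went from 6.94 to 86.3 CPM (median 37.8) to 0.294 to 2.94 CPM (median 1.81). Capn8, a calpain protease gene, went from 2.36 to 35.4 CPM to at most 1.18 CPM, and Rab11fip4, a Rab11 effector gene, from 5.5 to 59.4 CPM to 1.03 to 4.34 CPM.

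Cobl, Flg2, Pcdh7, Edn1, Utrn and Slc43a2 were down by nearly the same factor at each week, again by choice. Utrn, the dystrophin homologue utrophin (chr10:12382188-12861735, minus strand), fell by 1.68 (SE 0.12, adjusted p = 1.04e-05). Its controls differed between weeks, at 80.8 and 52.3 CPM, then 118 and 104, then 180 and 171, and the UVB libraries lay below them at 25.3 and 18.8, then 35.3 and 33.5, then 53.2 and 52.6. The log2 differences at the 3 weeks were -1.61, -1.69 and -1.72. Edn1, which encodes endothelin-1, a factor that keratinocytes release toward melanocytes, fell by 1.17 (SE 0.17), from 13.4 to 21.6 CPM to 6.38 to 10.4 CPM. Flg2, the cornified envelope protein filaggrin-2, fell by 1.14 (SE 0.20), from 667 to 1876 CPM to 430 to 665 CPM. Cobl, an actin nucleator gene, fell by 1.22, Pcdh7, a protocadherin gene, by 1.26 and the amino acid transporter gene Slc43a2 by 1.22. The most abundant genes per kilobase among those at least 2-fold down at each week were Prr9, Krt71, Krtap8-1 and Krt27. They fell by 1.80 (SE 0.28), 2.67 (SE 0.56), 2.57 (SE 0.53) and 2.66 (SE 0.52). All 4 came near the ceiling of counts per base of exon, at most 1.64, 1.72, 1.58 and 1.46. The highest control of each was week 2 control 1, the library with the lowest total count.

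Most cell division genes were up at every week, although few were called in the test of week 15 alone. Of 31 mitotic spindle and kinetochore genes, 30 were called up, none down, and 29 were up at every week, with a median log2 of 1.8 (2.43, 1.38 and 1.57 at weeks 2, 15 and 25). Of 29 replication licensing and fork genes, 23 were called up, none down, and 18 were up at every week, with a median of 0.81. In the tests of weeks 2, 15 and 25 alone, 29, 5 and 21 mitotic genes were called up. Replication genes were called up in 15, 1 and 6 cases. Mad2l1, a spindle checkpoint gene, held 4.84 and 5.4 CPM in the week 2 controls, 10.8 and 19.4 at week 15 and 9.77 and 8.42 at week 25. Its UVB libraries held 28.2 and 34.4, then 39.1 and 39.2, then 32.7 and 21.3 CPM, all above every control, and the difference was 1.80 ± 0.23 (adjusted p = 0.00037). Tpx2, a spindle assembly factor gene, rose by 1.60 ± 0.21 and Birc5, which encodes survivin of the chromosomal passenger complex, by 1.90 ± 0.25. Rrm2, the regulated subunit of the enzyme that makes deoxynucleotides, went from 28.2 to 38.5 CPM to 62.0 to 97.8 CPM, a rise of 1.38 ± 0.11 (adjusted p = 3.09e-05). The helicase subunit gene Mcm3 rose by 1.52 ± 0.22 and the licensing factor gene Cdt1 by 1.26 ± 0.20. Summed over the mitotic list, week 15 control 1 held 937 CPM, above week 25 UVB 1 at 747 CPM and week 2 UVB 0 at 784 CPM, whereas the other 5 controls held 212 to 404 CPM. The number of mitotic genes called up stayed at 29 or 30 whichever library was left out.

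Promoter sequences are shown for the division genes because shared motifs of cell cycle promoters can be read directly in them. They are from RefSeq on GRCm38.p6, and 10217 of the 13478 tested genes had a window of 250 bases before to 50 after the start. Capitals mark an E2F motif (TTTCCCGC or TTTGGCGC) in Mcm5 and Gins3 and a CHR motif (TTTGAA) in Kif11 and Ccnb2, each read on either strand. The stretches lie upstream of the start and run in the direction of the gene.
Mcm5, chr8:75109340-75109387, plus strand: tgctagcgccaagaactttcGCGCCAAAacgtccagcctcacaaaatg
Gins3, chr8:95633498-95633545, plus strand: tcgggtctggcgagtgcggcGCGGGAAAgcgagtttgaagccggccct
Kif11, chr19:37376343-37376381, plus strand: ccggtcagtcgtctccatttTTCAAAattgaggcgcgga
Ccnb2, chr9:70421696-70421741, minus strand: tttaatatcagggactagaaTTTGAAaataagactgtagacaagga

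An E2F motif was found in 10 of 24 replication promoters (41.7%), in 2.91% of all tested genes' promoters, in 4.64% of those of genes up at every week and in 1.32% of those of genes down. A CHR motif was found in 19 of 26 mitotic promoters (73.1%), in 12.2% of all, in 18.9% for genes up and in 12.8% for genes down, and also in 10 of 22 hair list promoters (45.5%). A match says only that the letters are present. Mcm5, an MCM helicase subunit, rose by 1.57 ± 0.26, from 5.4 to 31.8 CPM to 28.0 to 62.0 CPM. Gins3, of the replicative helicase complex, rose by 0.59 ± 0.15, from 8.3 to 11.3 CPM to 12.3 to 16.6 CPM. Kif11, the kinesin that separates spindle poles, rose by 1.83 ± 0.27, and Ccnb2, a mitotic cyclin gene, by 1.86 ± 0.27. Kif11 and Gins3 showed no overlap between the arms, whereas the highest control of Mcm5 and of Ccnb2 exceeded the lowest UVB library.

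DNA repair genes divided by pathway. Of 19 genes of homologous recombination and crosslink repair, which act in replicating cells, 17 were called up and 15 were up at every week, with a median log2 of 1.49. Rad51ap1 rose by 2.02 ± 0.24, from 1.79 to 5.04 CPM to 7.09 to 16.2 CPM, with no overlap between the arms. Brca1 rose by 1.49 ± 0.22 and Fancd2 by 1.62 ± 0.25. Of 20 genes of nucleotide excision repair and translesion synthesis, which deal with pyrimidine dimers, none was called up for the mean over weeks and Ercc6 was called down, falling by 0.46 (SE 0.12), with a list median of -0.04. By week, the median was 0.42 with 4 genes called up at week 2, -0.01 with no call at week 15, and -0.24 with 4 genes called down at week 25, and the test between weeks called 0 of the 20. Ercc1 stood at 0.52 ± 0.21 over the weeks (adjusted p = 0.0754) and at 1.25 at week 2, where it was called (adjusted p = 0.0139, edgeR).

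Of 24 p53 target genes, 8 were called up and 1 down, with a median log2 of 0.15, where 14.4% and 15.1% of all genes tested were called. In the tests of weeks 2, 15 and 25 alone, 8, 5 and 3 were called up and 0, 0 and 2 down. The medians at these weeks were 0.23, 0.26 and 0.01. The test between weeks called 3 of the 24, against 1.6% of all genes tested. Ptp4a3, a phosphatase gene, rose by 2.03 ± 0.27 (adjusted p = 0.000415), from 5.81 to 14.5 CPM to 27.5 to 65.5 CPM. The apoptosis gene Pmaip1, which encodes Noxa, rose by 1.61 ± 0.23, from 12.0 to 42.8 CPM to 68.3 to 98.4 CPM, and Apaf1, of the apoptosome, by 1.79 ± 0.30. Arms did not overlap in these 3. Ccng1, a cyclin gene, and Tnfrsf10b, a death receptor gene, were also up at every week. Sesn1, a stress-induced sestrin gene, was the member down at every week, falling by 0.53 (SE 0.10).

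Interferon response genes were called up as a mean over weeks in 20 of 30 cases, none down, but only 10 were up at every week. The list's median log2 was 2.3 over the weeks, with -0.04 at week 2, 2.89 at week 15 and 2.69 at week 25, and 3, 17 and 22 of the 30 were called up in the 3 weeks' own tests. The interaction of UVB with week was called for 1 of the 30. Cxcl10, which encodes a CXCR3 ligand that attracts T cells, held 1.08 and 1.25 CPM in the week 2 controls, 1.51 and 4.74 at week 15 and 2.44 and 0.443 at week 25. Its UVB libraries held 12.4 and 4.57, then 30.8 and 45, then 31.1 and 29.2 CPM, and the difference was 3.71 ± 0.42 (adjusted p = 0.000197). Cxcl9, a second CXCR3 ligand gene, rose by 3.75 ± 0.49, from 0.538 to 7.49 CPM to 5.88 to 72.1 CPM. Ifi35 rose by 1.22 ± 0.15, from 32.7 to 47.2 CPM to 67.9 to 124 CPM with no overlap. Gbp2, Gbp3, Bst2, Ifit2, Oas1a and Ifi27l2a were also up at every week. Oas2, Oas3, Mx2 and Dhx58, all antiviral effector or sensor genes, were called for the mean although their week 2 log2 differences were -0.54, 0.07, -0.37 and -0.36.

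Upstream stretches of 2 members that were up at every week are shown because they hold the interferon response element (GAAA, any 2 bases, GAAA, on either strand), which is in capitals.
Cxcl10, chr5:92349073-92349122, minus strand: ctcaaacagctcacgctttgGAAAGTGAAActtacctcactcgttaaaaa
Gbp3, chr3:142559979-142560034, plus strand: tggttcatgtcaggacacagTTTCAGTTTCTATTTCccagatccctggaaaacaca
The element was found in 13 of 21 interferon list promoters (61.9%), in 2.89% of all tested genes' promoters, in 4.74% of those of genes up at every week and in 2.34% of those of genes down. In Gbp3, a guanylate-binding protein gene, 2 overlapping elements occur, and its CPM went from 0 to 1.38 in controls to 1.14 to 19.8 with UVB.

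**Figure D2:**
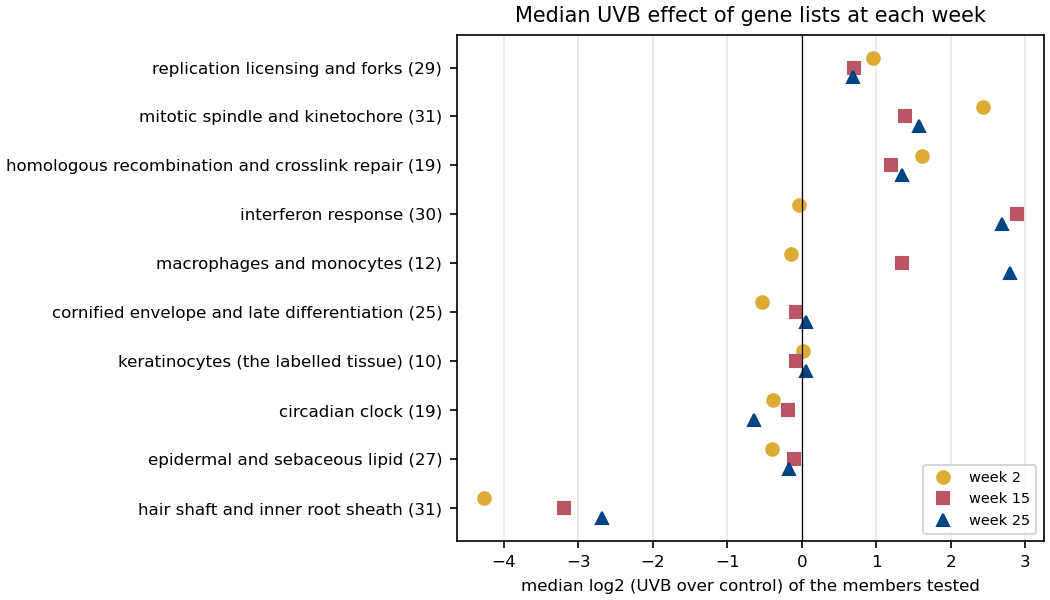
Median log2 difference of UVB over control (horizontal axis) of the tested members of 10 gene lists (vertical axis, members tested in brackets) at week 2 (circles), week 15 (squares) and week 25 (triangles). The mitotic list is above 0 at all 3 weeks (2.43, 1.38 and 1.57) and the hair list below it (-4.27, -3.19 and -2.68), whereas the interferon list is at -0.04 at week 2 and 2.89 and 2.69 later.

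Chemokines and cytokines moved in both directions. Of 26 tested, 10 were called up and 6 down, where 14.4% and 15.1% of all genes tested were called. At every week, 7 and 5 kept that direction, against 9.72% and 9.68% of all genes tested. Il33, an alarmin of epithelial nuclei, held 16.2, 24.4 and 44.9 CPM in the lowest, median and highest control and 54.2, 113 and 167 CPM with UVB, a rise of 2.03 ± 0.23 (adjusted p = 0.000215). The monocyte chemoattractant genes Ccl7 and Ccl2 went from at most 0.916 and 1.38 CPM to 1.95 to 40.1 and 2.12 to 13.5 CPM, without overlap. Ccl11, eotaxin, Il1b and Lif were also up at every week. The members down at every week were Il34, a CSF1 receptor ligand that Langerhans cells depend on, which fell by 0.80 (SE 0.13), Il1rn, the interleukin-1 receptor antagonist, by 0.52 (SE 0.10), Ccl20 by 1.04 (SE 0.22), Cxcl14 by 0.68 (SE 0.20) and Il1a by 0.56 (SE 0.16). Of 26 receptors, 8 were called each way. Il4ra, the interleukin-4 and interleukin-13 receptor chain, rose by 0.89 ± 0.11, from 91.2 to 136 CPM to 169 to 246 CPM, as did Osmr, the oncostatin M receptor, by 0.80 ± 0.15. Il1r2, the decoy receptor for interleukin-1, fell by 1.30 (SE 0.23) and Il1rap, the shared receptor chain, by 1.03 (SE 0.17).

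Among pattern recognition and inflammasome genes, 6 of 22 were called up and 5 down, where 14.4% of all genes tested were called up and 15.1% down. Tmem173, which encodes the DNA-sensing adaptor STING, rose by 2.05 ± 0.30, from 0.718 to 2.46 CPM to 3.43 to 14.7 CPM, and Mb21d1, which encodes the DNA sensor cGAS, by 0.54 ± 0.12, both without overlap. Gsdmd, the pore protein of pyroptosis, rose by 2.63 ± 0.45. Nod1 fell by 0.60 (SE 0.10), Casp4 by 0.69 (SE 0.10) and Casp1 by 0.51 (SE 0.10). Complement genes were called up in 4 of 13 cases, with C1s1 and C1ra up at every week. Of 15 MHC class I presentation genes 4 were called up, among them the immunoproteasome genes Psmb10 (1.40 ± 0.18, from 15.5 to 28.2 CPM to 45.9 to 70.7 CPM) and Psmb9, and Nlrc5, the transactivator of class I genes, fell by 0.67 (SE 0.12).

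Markers of other cell types moved beside these immune genes. Of 12 macrophage and monocyte markers, 8 were called up and none down, with a median log2 of -0.15, 1.35 and 2.8 at weeks 2, 15 and 25 and a summed level of 324 to 458 CPM in UVB and 225 to 310 CPM in control libraries. Cd163, a scavenger receptor of tissue macrophages, held 0.148 to 2.91 CPM in controls and 4.56 to 11.2 CPM with UVB. The neutrophil receptor gene Trem1 had no count in any control and 129 counts in the UVB libraries, 94 of them at week 2. S100a8 and S100a9, also expressed by stressed keratinocytes, were called up, and the summed neutrophil list ran from 205 to 285 CPM with UVB and from 121 to 199 CPM in controls. Langerhans and dendritic cell markers had medians of -0.67, 0.8 and 1.49 at the 3 weeks, with 7 of 11 called up at week 25 and none at weeks 2 or 15. Their sum at week 25 was 1111 and 1102 CPM with UVB and at most 678 CPM in controls, whereas at week 2 it was 722 and 624 CPM with UVB and 794 and 1375 CPM in controls, the last in week 2 control 1, which had the lowest total count. Over the weeks Flt3 and Itgax were called up, and Itgax lost its call in 12 of 22 alternatives, among them week 2 control 1 left out. T and NK cell markers split, with Cd4, Gzma, Cd5 and Gzmb up and Cd3g and Cd3e down of 10 tested. Cd4 had 5 counts in the controls and 63 in the UVB libraries. Cd7, of intraepidermal T cells, fell by 1.84 (SE 0.29), from 10.4 to 26.0 CPM to 2.35 to 6.04 CPM. It was the 1 member called for the mean over weeks among 4 tested markers of intraepidermal T cells. The median log2 of those 4 was -1.19, -1.18 and 0.69 at weeks 2, 15 and 25. The part of all these cell types in the immune gene results was not tested. In bulk RNA, fewer cells of a type and less RNA per cell cannot be told apart.

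Most hair follicle genes were down at every week. Of 31 genes of the hair shaft and inner root sheath, 27 were called down and 24 were down at every week, none was called up, and the median log2 was -3.3. Tchh, trichohyalin of the inner root sheath, held 396, 857 and 1168 CPM in the lowest, median and highest control and 41.8, 117 and 173 CPM with UVB, a fall of 2.83 (SE 0.40, adjusted p = 0.000534). Krt85 fell by 4.01 (SE 0.53), Krt31 by 4.03 (SE 0.56) and Padi3, which citrullinates trichohyalin, by 3.94 (SE 0.57). Shh, the follicle morphogen, had 65 counts in the 6 controls, 45 of them at week 2, and 1 count in the 6 UVB libraries. Hoxc13, the transcription factor of hair keratin genes, fell less, by 0.74 (SE 0.13), from 29.5 to 42.4 CPM to 19.6 to 26.0 CPM without overlap. The list's median was furthest below 0 at week 2, and the highest control level of Krt39 and of Krt72 was also at week 2. Melanocyte markers moved beside them. Their sum was 79.7 and 89.9 CPM in the week 2 controls and 19.6 and 20.2 CPM in the week 2 UVB libraries, against 21.4 to 46.7 and 15.6 to 27.2 CPM at the later weeks, and Mitf alone of 5 was called down. Mast cell markers other than Mrgprb2 were thinly counted, with 3 of 10 tested, and Tpsab1 was called up. Reads may be shared within keratin and Krtap families.

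**Figure D3:**
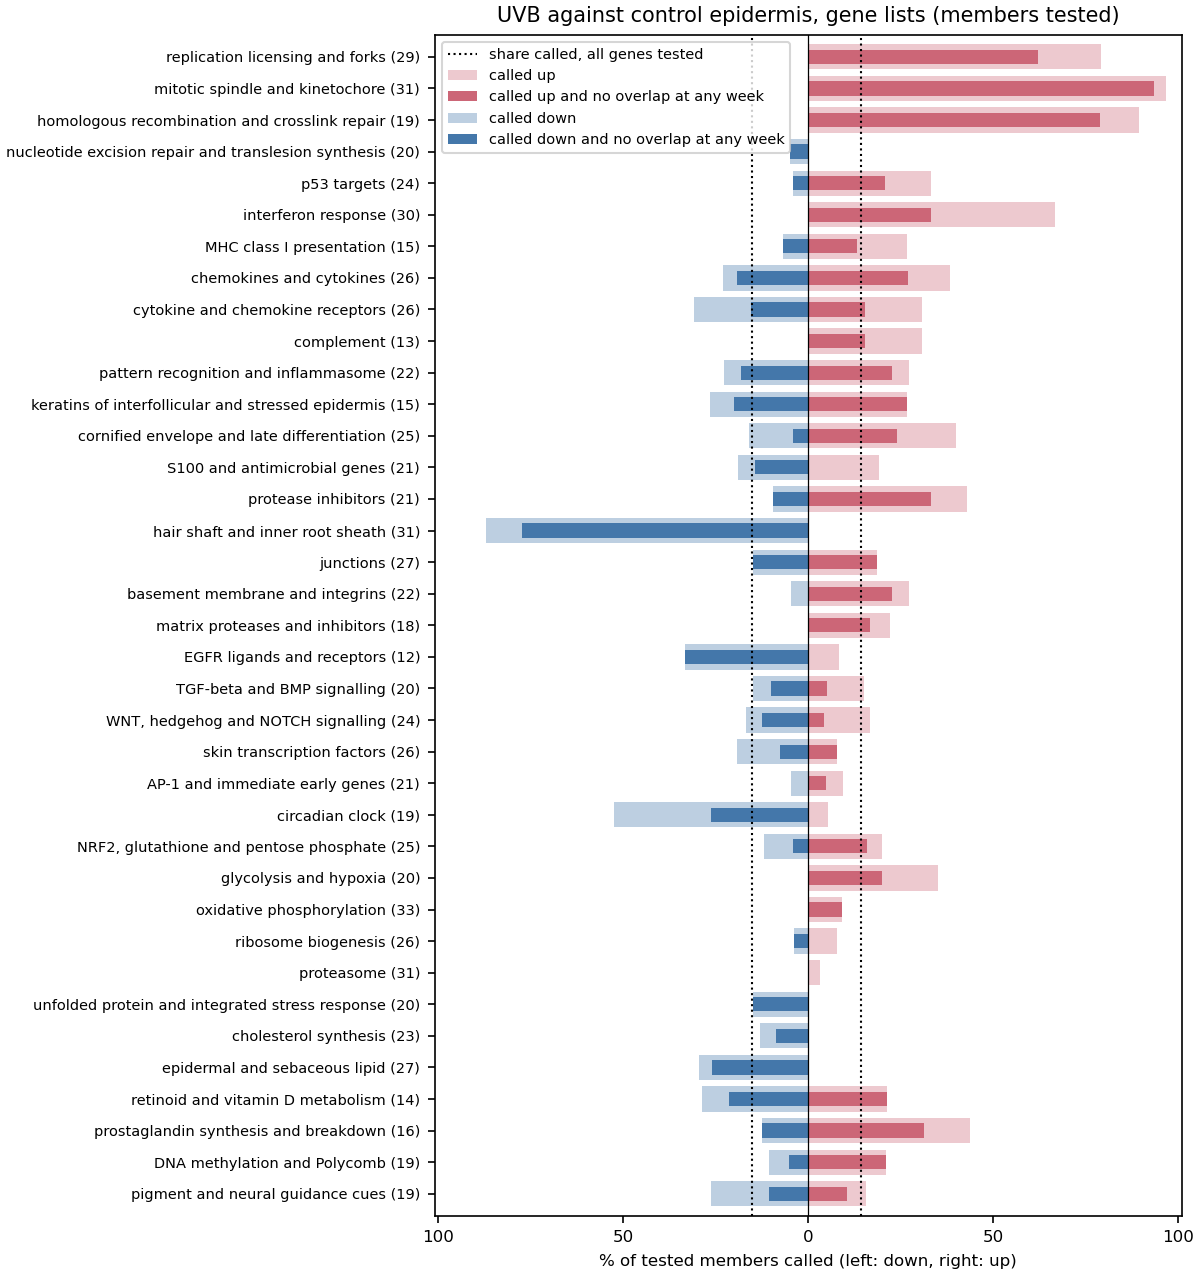
Percentage of the tested members of 37 gene lists called up (red, to the right) or called down (blue, to the left) for UVB over the weeks. Pale bars are all calls, dark bars are members that also showed no overlap between the arms at any week, and dotted lines mark the 14.4% up and 15.1% down over all genes tested. Division and recombination lists lie far to the right (30 of 31 mitotic genes), the hair list far to the left (27 of 31), and the proteasome (1 of 31) and oxidative phosphorylation (3 of 33) lists below the lines.

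Keratins of the surface epidermis were called in both directions. Of 15 tested, 4 were called up and 4 down, where 14.4% and 15.1% of all genes tested were called. Krt17, Krt1, Krt10, Krt80 and Krt18 were tested and had no call. Krt6a, Krt6b and Krt16, which mark wounded and hyperproliferative epidermis, and Krt7 of simple epithelia were called up. All 4 were up at every week without overlap. Krt6a went from 150 to 265 CPM to 348 to 425 CPM (0.93 ± 0.14) and Krt16 from 176 to 341 CPM to 342 to 411 CPM (0.59 ± 0.11), both near the ceiling set by duplicate removal. Krt77 and Krt78, keratins of suprabasal layers, fell by 0.72 each (SE 0.17 and 0.15), Krt15, of resting basal and bulge cells, by 0.59 (SE 0.12) and Krt2, of the upper layers, by 1.48 (SE 0.47). Krt5 and Krt14 of the basal layer stood at 0.28 ± 0.12 and 0.22 ± 0.08, with adjusted p of 0.0888 and 0.0529.

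Cornified envelope genes were also called in both directions. Of 25 tested, 10 were called up and 4 down, where 14.4% and 15.1% of all genes tested were called. At every week, 6 and 1 held. The genes up at every week were the late cornified envelope genes Lce3a, Lce3e and Lce3f, which are known to be induced when the barrier is injured, Sprr1b and Sprr2d of the small proline-rich family, and Rptn, which encodes repetin. Lce3e went from 2.44 to 10.4 CPM to 19.5 to 51.8 CPM (2.46 ± 0.34, adjusted p = 0.000543) and Rptn from 200 to 448 CPM to 607 to 888 CPM (1.11 ± 0.17). Flg2 fell at every week, as given above, and Ivl, Hrnr and Sprr4 fell by 0.52, 0.50 and 0.68 as means over weeks. Hrnr and Flg2 were highest in the shallow week 2 control 1. In that library, genes with at least 0.4 counts per base stood 0.16 higher by median log2 than in week 2 control 0 and genes under 0.02 counts per base stood 0.19 lower, as log2 -0.19. Lce and Sprr genes are close copies, so reads may be shared among them.

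Protease inhibitor genes were called up in 9 of 21 cases and down in 2, where 14.4% and 15.1% of all genes tested were called. Serpinb1a, an inhibitor of neutrophil serine proteases, held 2.49, 7.48 and 14.3 CPM in the lowest, median and highest control and 74.9, 80.9 and 120 CPM with UVB, a rise of 3.35 ± 0.30 (adjusted p = 4.88e-05). Spink12 rose by 3.26 ± 0.28, from 0.886 to 4.31 CPM to 9.26 to 33.0 CPM, Stfa1 by 3.25 ± 0.38 and Serpinb6c by 2.20 ± 0.24. No UVB library overlapped the controls in these 4. Serpinb7 and Serpinb8 fell by 0.62 (SE 0.15) and 0.43 (SE 0.15). Of 21 S100 and antimicrobial genes, 4 were called each way, near the shares of all genes tested. The 3 that held at every week were down, where 9.68% of all genes tested were. They were S100a3, a hair cuticle gene, by 2.61 (SE 0.48), Defb4 by 2.54 (SE 0.47) and Defb6 by 0.43 (SE 0.15).

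Genes that store, make and degrade retinoids differed between the arms at all 3 weeks. Cyp26b1, which degrades retinoic acid (chr6, minus strand), held 128 and 231 CPM in the week 2 controls, 259 and 151 at week 15 and 195 and 201 at week 25, against 40.9 and 27.9, 40.6 and 27.8, and 42.8 and 41.1 CPM with UVB. It fell by 2.40 (SE 0.19, adjusted p = 2.28e-05), with -2.37, -2.58 and -2.24 at the 3 weeks. Lrat, which esterifies retinol for storage, rose by 2.25 ± 0.18 (adjusted p = 2.91e-05), from 12.9 to 31.6 CPM to 44.6 to 155 CPM, and Aldh1a3, which makes retinoic acid, by 2.08 ± 0.36. Stra6, the membrane receptor for retinol uptake, fell by 2.91 (SE 0.50) and Dhrs3, which reduces retinal to retinol, by 0.58 (SE 0.14). Arms did not overlap in Cyp26b1, Lrat, Aldh1a3 and Stra6. In all, 3 of the 14 retinoid and vitamin D genes tested were called up and 4 down, against 14.4% and 15.1% of all genes tested.

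Prostaglandin genes were called up in 7 of 16 cases and down in 2, against 14.4% and 15.1% of all genes tested. Hpgd, which inactivates prostaglandins, held 7.16, 9.71 and 22 CPM in the lowest, median and highest control and 43.1, 66.5 and 102 CPM with UVB, a rise of 2.58 ± 0.25 (adjusted p = 7.24e-05). Ptgs2, the inducible cyclooxygenase gene known to respond to UVB, rose by 2.60 ± 0.38, from 1.25 to 4.39 CPM to 2.48 to 27.6 CPM, and Ptges, a prostaglandin E synthase gene, by 0.39 ± 0.08. Ptgs1, the constitutive cyclooxygenase gene, fell by 0.45 (SE 0.11) and Alox12, a lipoxygenase gene, by 1.23 (SE 0.18), from 30.3 to 60.5 CPM to 16.3 to 24.1 CPM.

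Of 27 junction genes, 5 were called up and 4 down, shares near the 14.4% and 15.1% of all genes tested, and all 9 lay on the same side of the controls at every week. Gjb2 and Gjb6, which encode connexins of proliferating epidermis, rose by 0.94 ± 0.16 and 1.29 ± 0.24, and Dsg3, a desmosomal cadherin of the lower layers, went from 14.4 to 68.6 CPM to 57.2 to 150.4 CPM. Cdh3, which encodes P-cadherin, and Cldn12 were the other members up. Ocln, occludin of tight junctions, fell by 0.97 (SE 0.15), from 82.2 to 151 CPM to 45.7 to 103 CPM, as did the connexin gene Gjb5 by 0.39 and the claudin gene Cldn3 by 2.07. Of 22 basement membrane and integrin genes 6 were called up and 1 down. Itgb6, of an integrin that activates TGF-beta, rose by 1.13 ± 0.17 without overlap, and Tnc, tenascin-C of wounds, went from 8.51 to 25.8 CPM to 19.1 to 117 CPM. Fibroblast markers moved with week beside the matrix genes. Their sum was 198 to 488 CPM with UVB and 82.7 to 198 CPM in controls, their median log2 was -2.33, -1.1 and 2.16 at the 3 weeks, and 2 of 9, Fbln1 and Postn, were called up. Their part in the matrix results was not tested.

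Growth factor and transcription factor genes were called in both directions, where 14.4% of all genes tested were called up and 15.1% down. Of 12 EGFR ligands and receptors 4 were down at every week: Btc, betacellulin, by 1.36 (SE 0.22), Tgfa by 0.77 (SE 0.15), the feedback inhibitor gene Errfi1 by 0.64 (SE 0.11) and Erbb2 by 0.37 (SE 0.10). Btc went from 98.5 to 288 CPM to 69.0 to 147 CPM. Hbegf was called up, at 0.42 ± 0.13. Bmp4 and Bmp2 fell by 1.42 (SE 0.27) and 0.71 (SE 0.16) and the receptor gene Tgfbr1 rose by 0.79 ± 0.16. In all, 3 of 20 TGF-beta and BMP genes were called each way, near the shares of all genes tested. Wnt7b fell by 0.81 (SE 0.10), from 146 to 208 CPM to 74.9 to 124 CPM. Of 24 WNT, hedgehog and NOTCH genes 4 were called each way, also near those shares. Among 21 AP-1 and immediate early genes, Junb and Dusp6 were called up and Egr2 down, Dusp6 losing its call in 7 of 22 alternatives, and Fos stood at 0.58 ± 0.22 with an adjusted p of 0.0656. Among guidance and pigment cues, Kitl, the ligand of the KIT receptor on melanocytes, rose by 2.43 ± 0.36, from 1.08 to 6.26 CPM to 7.62 to 32.5 CPM. Sema6a, a semaphorin gene, fell by 1.63 (SE 0.23), from 14.4 to 48.6 CPM to 7.55 to 13.5 CPM.

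Circadian clock genes were called down in 10 of 19 cases and up in 1, against 15.1% and 14.4% of all genes tested. Their median log2 was -0.45, and 5 were down at every week. In the tests of weeks 2, 15 and 25 alone, 5, 0 and 9 were called down and 3, 0 and 0 up. The medians at these weeks were -0.38, -0.19 and -0.64. Cry2, a repressor of the clock, fell by 0.75 (SE 0.13, adjusted p = 0.00125), from 86.6 to 129 CPM to 52.1 to 78.3 CPM without overlap. Hlf, a clock output factor gene, fell by 0.88 (SE 0.18), Ciart by 0.73 (SE 0.16), Arntl, which encodes the activator BMAL1, by 0.65 (SE 0.15) and Per1 by 0.51 (SE 0.15). Bhlhe40, a repressor gene, was the member called up, at 0.35 ± 0.12. The labels give light and dark cycles of the housing but not the hour of collection.

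Skin lipid genes were called down, and glycolysis genes up, more often than the 15.1% and 14.4% of all genes tested. Proteasome and ribosome biogenesis genes were called less often, with no test of these shares. Skin lipid genes were called down in 8 of 27 cases and up in none. Acaca, which makes malonyl-CoA for fatty acid synthesis, fell by 0.85 (SE 0.18), Elovl6 by 0.65 (SE 0.16), and Alox12b and Aloxe3, lipoxygenases of the water barrier, by 0.60 (SE 0.12) and 0.61 (SE 0.18). Glycolysis and hypoxia genes were called up in 7 of 20 cases, led by Slc2a1, the glucose transporter GLUT1, at 1.05 ± 0.17, from 49.0 to 123 CPM to 122 to 231 CPM. Of 25 NRF2, glutathione and pentose phosphate genes 5 were called up and 3 down. Nqo1 rose by 1.39 ± 0.18, from 4.31 to 7.18 CPM to 12.6 to 17.6 CPM, and Gclm by 1.09 ± 0.15, whereas Txnrd1 fell by 0.69 (SE 0.18). Calls were few among 31 proteasome genes (1 up) and 26 ribosome biogenesis genes (2 up, 1 down). Of 20 unfolded protein response genes and 23 cholesterol synthesis genes, 3 each were called down, near the 15.1% of all genes, and none up. Of 33 oxidative phosphorylation genes 3 were called up, but 14 with upper-quartile scaling and 18 without week 2 control 1. RNA quality and dissociation stress genes had no call for the mean over weeks among 8, and 1 was called down at week 25. The mitochondrial genes of that list are absent from the deposited counts. The list summed to 4890 CPM in week 2 control 1 and to 2383 to 3086 CPM in UVB libraries.

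Genes of DNA methylation and Polycomb repression were read because the study also profiled methylation, which was not analysed here. Of 19 tested, 4 were called up and 2 down, where 14.4% and 15.1% of all genes tested were called. Dnmt3l, the catalytically inactive partner of the de novo methyltransferases, held 0.488, 1.24 and 1.66 CPM in the lowest, median and highest control and 9.57, 13.9 and 21.3 CPM with UVB, a rise of 3.60 ± 0.30 (adjusted p = 3.12e-05) with no overlap. Uhrf1, which brings maintenance methylation to replicating DNA, rose by 1.17 ± 0.25 and Hells, a chromatin remodeller of dividing cells, by 1.68 ± 0.32. Dnmt3a, a de novo methyltransferase gene, fell by 0.85 (SE 0.15), from 27.0 to 85.5 CPM to 22.1 to 35.7 CPM. Eed rose by 0.42 ± 0.10 and Ezh1 fell by 0.44 (SE 0.10).

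Some called genes changed in size between weeks. A test of the UVB effect between weeks called 215 genes (1.6%), and 15 of the 1938 genes up and 12 of the 2035 genes down were among them. That count depended on single libraries, from 1 without week 2 UVB 1 or without week 25 control 1 to 2280 without week 2 control 0. Eda2r, a p53-induced receptor gene on chromosome X, held 77.1 and 87.0 CPM in the week 2 UVB libraries, 30.9 and 32.5 at week 15 and 10.3 and 15.8 at week 25, against 2.69 and 5.4, 6.43 and 9.47, and 11.2 and 15.4 CPM in the controls. Its UVB effect was 4.46, 1.98 and -0.04 at the 3 weeks (adjusted p for the difference between weeks 0.0171). Pxdc1 and Stfa2 went the other way, with effects of 0.18, 0.95 and 2.07 (adjusted p = 0.031) and of up to 2.88 at week 25 (adjusted p = 0.0277). In Stfa2 the UVB libraries stayed at 74.9 to 95.8 CPM while controls were at 46.8 and 39.0, then 19.9 and 23.4, then 11.4 and 13.3 CPM. The UVB libraries held at least 1.21 counts per base of its 423 bases of exon, near the ceiling, and its part in the size of this difference was not tested. Among genes down, Kmt2c, a histone H3K4 methyltransferase gene, had effects of 0.08, -0.38 and -1.16 (adjusted p = 0.031), Dmxl1 of 0.17, -0.55 and -1.30 (adjusted p = 0.031), and Gpd2, the mitochondrial glycerol-3-phosphate dehydrogenase gene, of 0.28, -1.46 and -1.37 (adjusted p = 0.0329). Eda2r lost its call for the mean over weeks in 4 of 22 alternatives. Kmt2c and Dmxl1 lost theirs in 11 and Gpd2 in 9 of 22, most single libraries of weeks 15 and 25 left out and the replicate block among them. In all 3 of these the week 2 UVB libraries lay at or above the controls and the week 25 libraries below them.

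A call for the mean over weeks did not always mean 1 direction. Week effects differed in sign in 60 of the genes called up and 48 of those called down, and the test between weeks called 7 and 5 of these. Cdkn2a, the locus of the cell cycle inhibitors p16 and p19, held 0.354 and 0.979 CPM in the week 2 UVB libraries, 12.4 and 28.5 at week 15 and 37.9 and 39.2 at week 25, against 1.26 and 0.415, 0.378 and 3.36, and 3.42 and 5.32 CPM in the controls. Its mean effect was 2.74 ± 0.58 (adjusted p = 0.00441), although its week 2 arms overlapped, and its effect was not called different between weeks (adjusted p = 0.227). P4ha3, a collagen prolyl hydroxylase gene, had no count in UVB and 1 in control libraries at week 2, then 68 and 81 counts with UVB at weeks 15 and 25 against 3 and 1. Ifi44 had 3 counts in each arm at week 2, then 165 and 334 with UVB against 3 and 12.

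**Figure D4:**
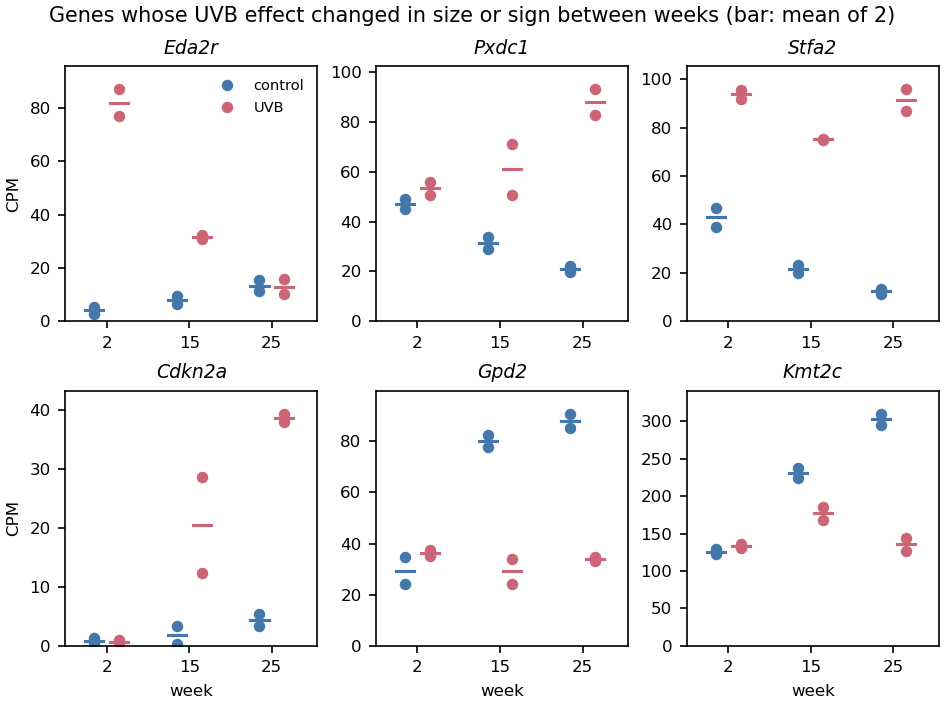
CPM (vertical axis, linear, from 0) by week for 6 genes whose UVB effect changed in size or sign between weeks, drawn as in the plot of genes up or down at every week. UVB libraries fall with time in Eda2r (87.0 to 10.3 CPM) while controls fall in Stfa2 (46.8 to 11.4 CPM), and Cdkn2a separates only after week 2. Cdkn2a was not called different between weeks, and the other 5 were.

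The tumor and whole skin libraries gave a readout that the choice of genes did not use. In the test of 2 tumor against 2 whole skin libraries at week 25, no gene of 14661 was called up (0%) or down (0%). By edgeR's quasi-likelihood test 813 genes had an unadjusted p under 0.05 and the smallest adjusted p was 0.371, whereas DESeq2 called 63 genes. The call count was 2986 and 5488 without whole skin 0 or 1, and 5 and 6 without tumor 0 or 1, fits that leave 1 library in an arm and assume that it varies like the pair. Of genes up at every week in epidermis, 902 of 1295 tested (69.7%) were higher in tumor than in whole skin, against 41.2% of all genes tested in both comparisons, and of genes down at every week 966 of 1211 (79.8%) were lower, against 58.6%. Their median tumor log2 differences were 0.18 and -0.27, against -0.06 for all genes. Il19 held 89.2 and 90.1 CPM in tumors, and 0 and 49.4 CPM in whole skin. Akr1d1 held 28.4 and 34.4 CPM in tumors and 0 and 11.2 CPM in whole skin. Cyp26b1, down at every week in epidermis, held 33.1 and 44.7 CPM in tumors and 32.2 and 28.5 CPM in whole skin. The 2 whole skin libraries lay far apart in several of these genes, and whole skin contains dermis that epidermis lacks. In Il19 and Akr1d1 whole skin 1 was the library nearer the tumors. Krt6b held 27.2 and 359 CPM in whole skin 0 and 1, and 373 and 377 CPM in tumors. Icosl was higher in whole skin 0, at 76.2 against 43.3 CPM. The shares and medians above compare the tumors with this uneven pair. The tumor medians of the division lists were 0.29 (mitotic) and 0.09 (replication) and that of the interferon list was 1.23.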

How the data were processed

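The deposited table lists whole-number counts of 24421 genes on mm10, made from alignments with duplicates removed, per the file headers. HISAT2, Picard, featureCounts and DESeq2 are named in the submitters' processing notes. How strand and multimapping reads were handled is not stated there, so genes with near-identical copies (Krt, Krtap, Sprr, Lce, Serpinb, Stfa, Gbp, Oas) or overlapping neighbours are uncertain.

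Counts of the 12 epidermis libraries were analysed with edgeR 4.0.16 in R 4.3.3: filterByExpr (minimum count 10, minimum total 15), TMM scaling and the quasi-likelihood F test of treatment beside an additive week factor (8 residual df, and a coefficient of variation between libraries of 22.7%). A second fit with a mean per week and arm gave week effects and their difference (6 df, 19.1%). Tumor and whole skin were fitted separately (2 df, 29.8%). P-values were adjusted over all genes tested. CPM uses TMM sizes. SE is the log2 difference over the square root of F. Named genes were those with the largest effect at the weakest week, the smallest range of week effects or the highest CPM per kb, up to 3 members per list, and genes with the smallest p between weeks or with signs that differ; other list members were named after their values were seen. The members and lists were chosen with earlier results of these data known. A few list members are not reported here. The scripts were tested on simulated data. Alternatives were other scalings (RLE, upper quartile), no filter, DESeq2 1.42.0, limma-voom 3.58.1, a replicate block, an equal-weight mean, and leaving out each library or week.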

Additional observations from a re-analysis of the deposited data

Results flagged for a closer look

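Week 2 control 1, with 2905165 counts, was the lowest of the 6 controls by a gap of 0.636 of the range of totals. Of 88 groups checked, 8 had a library whose gap to its nearest neighbour was large, and chance flags about 1 in 20. The share of the range was 0.644 for Ankle1, 0.678 for Icosl and 0.654 for Rnaseh2c, in each case with week 15 control 1 as the highest control. It was 0.644 for Krtap26-1 (week 2 control 0 highest), 0.699 for Ifi44 (week 25 control 0 highest), 0.647 for Krt39 (week 15 UVB 1 highest) and 0.687 for Gpd2 (week 15 UVB 0 lowest).

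The UVB effect differed between weeks by the interaction test for Stfa2 (adjusted p = 0.0277), Eda2r (0.0171), Pxdc1 (0.031), Dmxl1 (0.031), Kmt2c (0.031) and Gpd2 (0.0329). It also differed for Fabp4 (0.0404), an adipocyte marker with log2 effects of -4.39, -1.14 and 0.63 at weeks 2, 15 and 25, and for Acta2 (0.0492), a mural cell marker with effects of -2.46, 1.93 and 2.25. These adjusted values are from edgeR's quasi-likelihood test.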

How the results depend on the processing

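Counts of genes up and down over the weeks (1938 and 2035) stayed within 1.5 times under RLE and upper-quartile scaling, no filter, DESeq2, limma-voom and the equal-weight mean. With upper-quartile factors the split was 2440 up and 1462 down (62.5% up, against 48.8%), and with DESeq2 3956 of the 3973 calls were shared. They were 1069 and 1043 without week 15 and 977 and 1136 without week 25. Leaving out 1 library gave 1491 to 2309 up and 1269 to 2252 down, the lowest down count without week 15 control 0. With 1 library left out, genes up and down at every week numbered 1190 to 1743 and 994 to 1596. The week concerned then sets 1 library against 2, which makes a lack of overlap easier to meet. Counts that need a call at each week also moved: up 283 and down 299 without the filter, 239 and 244 with DESeq2, down 77 with upper-quartile factors, and 18 to 322 up and 1 to 311 down with 1 library left out, the fewest without week 15 UVB 1 or control 0. Genes differing between weeks numbered 794 without the filter, 1123 with DESeq2 and 1 to 2280 with 1 library left out, and tumor calls 1, 63 and 5 to 5488. Of 165 named genes called, 117 kept the call in every alternative (of 22) that gave them an adjusted p. For C1qc, Mogat1, Cd4, Ms4a7 and Trem1 these were 21 alternatives. The call was lost in at least 1 by 48 genes, and none changed sign. Same-numbered libraries did not pair (correlations -0.087, -0.034 and 0.241). The replicate block gave 1495 up and 1481 down, with 1127 up and 1123 down at every week, and 182 called down at each week. Depth limits genes of a few CPM, where 1 or 2 counts set the control level.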
